A study of Mus musculus with 4 samples.

Results

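The genes described here encode the subunits of oxidative phosphorylation, and they come from both genomes of the mouse cell. They were chosen by gene symbol alone. Nuclear members had symbols of the Nduf, Sdh, Uqcr, Cox and Atp5 families that name subunits of complexes I to V. Mitochondrial members were the protein-coding genes of the mitochondrial genome, and symbols marking pseudogenes were left out. The rule gave 97 of the 32285 genes in the count tables, 84 of them nuclear and 13 mitochondrial. By complex, the nuclear members numbered 37 for complex I, 4 for complex II, 8 for complex III, 18 for complex IV and 17 for complex V. Grouping was by symbol, so Ndufa4, now placed in complex IV, and its paralog Ndufa4l2 were counted with complex I throughout.

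The counts came from leukocytes of the brain, sorted on CD45, a surface protein of blood-derived cells and microglia, after perfusion, mechanical dissociation and enrichment on Percoll. All mice were wild-type C57Bl/6. Young mice were 3 to 6 months old and aged mice 18 to 20 months old. At each age 1 group was studied 3 days after a cardiac arrest (CA) that was brought on by potassium chloride and ended by resuscitation, and 1 group after a sham operation. Each of the 4 groups was 1 library of droplet-based single-cell RNA sequencing made from 3 pooled mice. With 1 library in a group there was no replicate, so no difference below was tested. Intervals in brackets are exact 95% intervals that cover counting error only, not the spread between mice.

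The respiratory chain passes electrons from NADH through complex I and from succinate through complex II to ubiquinone, then through complex III and cytochrome c to complex IV, which reduces oxygen. Complexes I, III and IV pump protons across the inner mitochondrial membrane, and complex V, the ATP synthase, uses that gradient to make ATP. Complexes I, III, IV and V need subunits from both genomes, while complex II is encoded in the nucleus alone. Microglia, the resident macrophages of the brain, are known to shift between oxidative phosphorylation and glycolysis with their state.

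A barcode was kept if it had 500 or more unique molecular identifiers (UMIs, one per captured transcript), 200 or more genes, and a mitochondrial share of 10% or less. The libraries kept 5888 to 10131 barcodes, with a median of 3130 UMIs in aged sham, 6368 in young sham, 9857 in young CA and 10432 in aged CA. A barcode was called microglia when it carried microglial markers such as P2ry12, Tmem119 and Siglech at 75% or more of its UMIs on 13 lists of lineage markers. All 9 microglial markers were seen in each library, and the gate found 7950 sham and 8602 CA microglia in young mice, and 4727 and 4240 in aged mice. The summed level of those gate markers itself differed, at 11295, 6542, 9962 and 3744 UMIs per 1000000 UMIs (CPM) in that order. Between 5.90% (young sham) and 25.2% (aged sham) of kept barcodes met no lineage call. Pairs of libraries shared 15 to 32 barcode sequences.

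In microglia, genes of both genomes made up a larger part of the transcripts in the CA library than in the sham library of the same age. The level summed over the 84 nuclear members was 5712 CPM in sham and 10427 in CA microglia of young mice, and 7070 and 11094 in those of aged mice. Summed over the 13 mitochondrial members, it was 17513, 27713, 21160 and 37259 CPM in the same order. Both CA libraries lay above both sham libraries for each genome. The nuclear sum was 1.83-fold higher after CA in young mice [1.82 to 1.83] and 1.57-fold higher in aged mice [1.56 to 1.58]. The mitochondrial sum was 1.58-fold higher in young mice [1.58 to 1.59] and 1.76-fold higher in aged mice [1.76 to 1.77]. Over all microglia the nuclear ratio was the larger one in young mice and the mitochondrial ratio in aged mice. Among cells of 1 to 2% or 2 to 4% Malat1 UMIs, the mitochondrial ratio was the larger one in young mice too. It was 1.57 against 1.33 for the nuclear sum at 1 to 2%, and 2.06 against 0.99 at 2 to 4%. At 0.5 to 1% and at 4% or more, both ratios in young mice were nearly equal, at 1.29 each and 1.43 each. Under 0.5% they were 1.12 (mitochondrial) and 0.41 (nuclear). Young mice had 3.07 mitochondrial UMIs per nuclear member UMI after sham surgery and 2.66 after CA, and aged mice had 2.99 and 3.36. The gate on the mitochondrial share bears on the mitochondrial sums, since 1.65% of sham and 5.33% of CA microglia in young mice, and 1.56% and 11.2% in aged mice, lay above the 10% limit and were left out. UMIs are counted once per transcript from its 3' end, so CPM is not scaled by gene length, and it states a share of all UMIs, not an amount per cell.

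**Figure D1:**
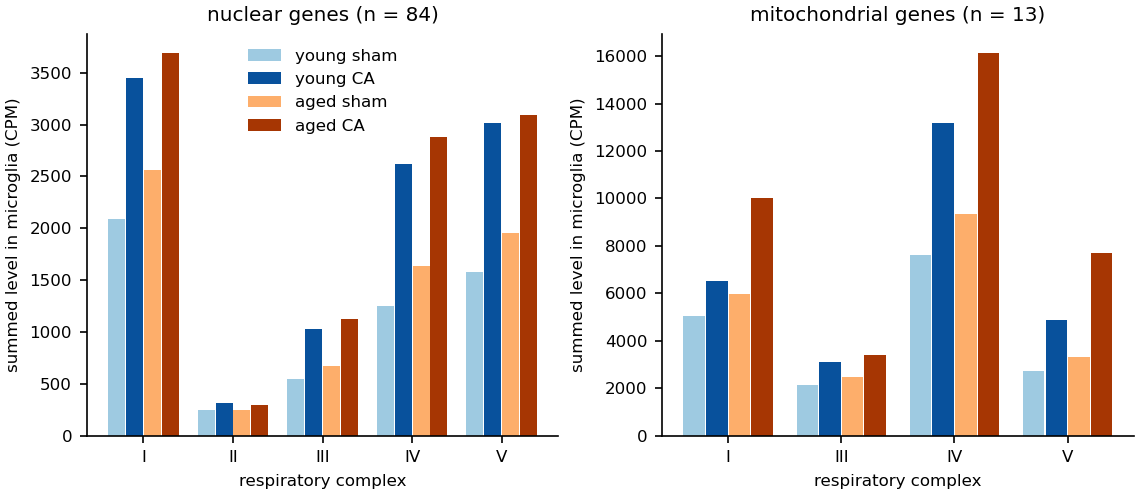
Summed level in microglia (CPM, linear axis from 0) of the nuclear (left) and mitochondrial (right) members of each complex, 1 bar for each library with no replicates. The nuclear sum of complex IV is 1252 and 2619 CPM in the young libraries (sham, then CA) and 1639 and 2884 CPM in the aged ones, while that of complex II lies between 244 and 314 CPM.

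Of the 84 nuclear members, 77 reached a mean of 10 CPM over the 4 libraries and entered the counts that follow. In young mice, 75 of the 77 had a higher level in CA than in sham, against 44.0% of all 9167 genes past the same filter. The median log2 ratio was 0.90 for the members and -0.06 for all genes. A ratio of 2 or more was reached by 24 members, against 5.51% of all genes. In aged mice, 75 of the 77 were likewise higher in CA, against 52.4% of all genes, with a median log2 ratio of 0.62 for members and 0.03 for all genes. There, 6 members reached a ratio of 2, against 5.99% of all genes, which is near that background. For 74 of the 77, both CA libraries lay above both sham libraries, against 32.5% of all genes, and the exceptions were Ndufs1, Ndufs4 and Sdha. The young count of 24 was 45 with TMM scaling and 0 among cells of 1 to 2% Malat1 UMIs. No share of all genes called was taken under those settings. The direction of both sums reversed when scaled to ribosomal UMIs, as given further on. The 2-fold line ran through a dense stretch of values, with Atp5g3 just under it at a log2 ratio of 0.998 and Atp5d just over it at 1.015 in young mice.

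**Figure D2:**
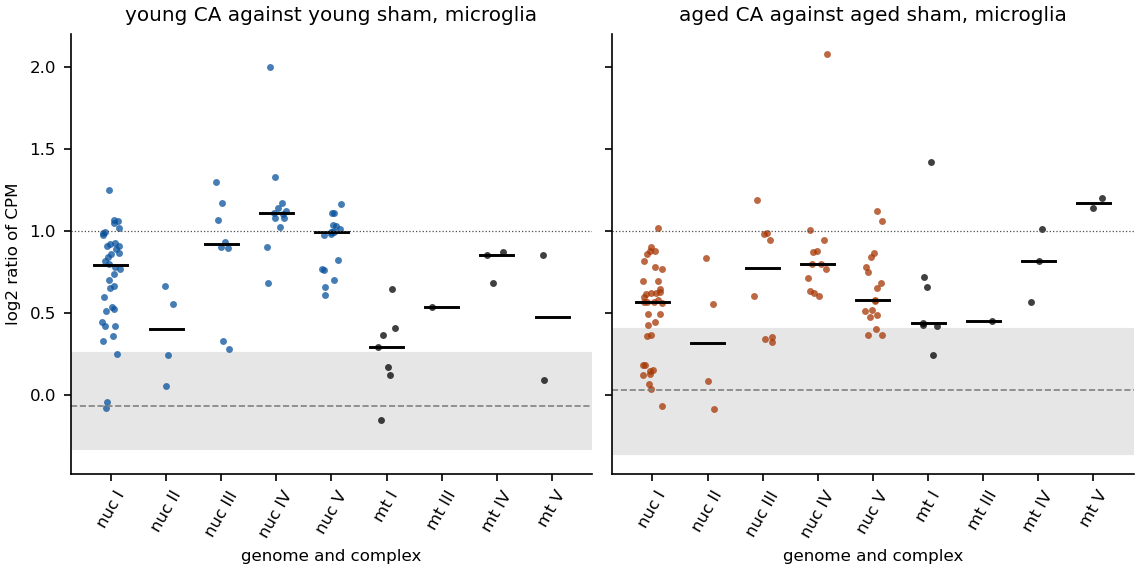
Log2 ratio of CPM, CA over sham, for each eligible member in microglia of young (left) and aged (right) mice, by genome and complex. Horizontal bars are medians, the dashed line and grey band are the median and the middle 50% of all 9167 eligible genes, and the dotted line marks a 2-fold ratio. Nuclear complex IV has the highest nuclear median in both ages (1.11 and 0.80) and complex II the lowest (0.40 and 0.32).

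Complex IV, cytochrome c oxidase, had the highest nuclear median ratio in both ages. In aged mice its median log2 ratio of 0.80 lay close to the 0.78 of complex III. Of the 12 eligible members of complex IV, 12 were higher after CA in both ages. This stands against 44.0% of all genes in young and 52.4% in aged mice. A ratio of 2 was reached by 10 of the 12 in young mice, against 5.51% of all genes, and by 2 of the 12 in aged mice, against 5.99%. Cox6a2, counted among them, passed the filter only through the CA libraries. Cox4i1, its largest nuclear subunit and the most abundant nuclear member, stood at 208 CPM in sham and 458 in CA microglia of young mice, and 272 and 525 in those of aged mice. Its level after CA was 2.21-fold the sham level in young mice [2.16 to 2.25] and 1.93-fold in aged mice [1.89 to 1.98]. Cox5b, a zinc-binding subunit on the matrix side, gave 67.0, 168, 96.6 and 194 CPM in the same order. Both of its CA libraries lay well above both sham libraries, with ratios of 2.52 in young mice [2.43 to 2.60] and 2.01 in aged mice [1.93 to 2.10]. Cox8a, one of the smallest subunits, gave 178, 376, 230 and 422 CPM. Cox6c, another small membrane subunit, gave 117, 264, 158 and 291 CPM, and Cox7c, a further small subunit, gave 171, 320, 234 and 399 CPM. These 5 genes all had both CA libraries above both sham libraries. The lowest ratios in this complex belonged to Cox7a2l, which takes part in joining complexes III and IV into supercomplexes, at log2 0.69 in young and 0.61 in aged mice.

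Complex III is the cytochrome bc1 complex. Several of its small accessory subunits were among the highest nuclear members. Uqcrq gave 71.8 CPM in sham and 177 in CA microglia of young mice, and 92.4 and 211 in those of aged mice, a ratio of 2.47 in young mice [2.39 to 2.55] and 2.28 in aged mice [2.19 to 2.38]. Uqcr10 gave 56.6, 128, 73.8 and 147 CPM, again with both CA libraries above both sham libraries. Of the larger subunits, Uqcrfs1, the Rieske iron-sulfur protein, was close to them with ratios of 1.87 and 1.93, while the matrix-side core subunits Uqcrc1 and Uqcrc2 showed smaller ratios. Uqcrc1 gave 52.9, 66.6, 52.4 and 65.6 CPM, and Uqcrc2 gave 65.2, 79.3, 63.9 and 81.2 CPM. For both genes the 2 sham libraries were nearly equal and both CA libraries lay above them, with ratios in young mice of 1.26 for Uqcrc1 and 1.22 for Uqcrc2.

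All 17 eligible members of complex V were higher after CA in both ages, against 44.0% of all genes in young and 52.4% in aged mice. Atp5e, the epsilon subunit of the central stalk, gave 147 CPM in sham and 330 in CA microglia of young mice, and 192 and 309 in those of aged mice. The young CA library was thus above the aged CA library for this gene, and the ratio was 2.24 in young mice [2.19 to 2.30] and 1.61 in aged mice [1.56 to 1.66]. Atp5l, the g subunit of the membrane part, gave 108, 232, 139 and 303 CPM, with nearly equal ratios of 2.16 and 2.18. Atp5mpl, a small proteolipid of the membrane part, gave 66.0, 143, 85.5 and 179 CPM, with ratios of 2.16 and 2.09. Atp5g2, which encodes a copy of the c subunit of the rotor ring, gave 135, 276, 172 and 296 CPM. The catalytic subunit Atp5b had smaller ratios, at log2 0.83 in young and 0.76 in aged mice.

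Complex I, the NADH dehydrogenase, had 36 eligible members, whose log2 ratios ran from -0.08 to 1.25 in young mice and from -0.06 to 1.02 in aged mice. Ndufa1, a small membrane-arm subunit encoded on chromosome X, gave 44.5 CPM in sham and 106 in CA microglia of young mice, and 68.5 and 126 in those of aged mice. Its ratio was 2.39 in young mice [2.29 to 2.49] and 1.84 in aged mice [1.75 to 1.94]. Ndufa12, an accessory subunit near the peripheral arm, gave 38.8, 78.8, 51.5 and 104 CPM, a ratio of 2.03 in young and 2.03 in aged mice. At the other end stood Ndufs4, a regulatory accessory subunit, with 116, 110, 116 and 111 CPM. Ndufs1, the core subunit that carries several iron-sulfur clusters, gave 52.3, 50.9, 45.5 and 50.4 CPM. For these 2 genes the 4 libraries lay close together. Both CA levels of Ndufs4 were slightly below both sham levels, and for Ndufs1 the sham and CA levels overlapped. Ndufa9, an accessory subunit, had log2 ratios of 0.25 and 0.07. Ndufb3, a membrane-arm subunit, had 0.43 and 0.04.

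Complex II, succinate dehydrogenase, which is also an enzyme of the tricarboxylic acid cycle, had the lowest median ratio of the 5 complexes in both ages. Sdha, the flavoprotein subunit, gave 98.7 CPM in sham and 103 in CA microglia of young mice, and 92.0 and 87.0 in those of aged mice. Its CA level lay slightly above sham in young mice (1.04-fold, 1.01 to 1.07) and slightly below in aged mice (0.95-fold, 0.90 to 0.99). Sdhb, the iron-sulfur subunit, gave 66.3, 97.7, 67.7 and 99.6 CPM, with both CA libraries above both sham libraries. The membrane anchors differed from each other. Sdhc gave 49.7, 58.9, 50.6 and 53.7 CPM, and Sdhd gave 34.5, 54.8, 34.3 and 61.3 CPM.

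Of the tissue-restricted isoforms, 1 passed the filter of 10 CPM. Cox6a2, the isoform of subunit VIa known from heart and skeletal muscle, gave 3.73 CPM after sham surgery (236 UMIs) and 15.0 after CA (1448 UMIs) in young mice, and 6.58 (204 UMIs) and 27.9 (1395 UMIs) in aged mice. It had the highest CA ratio of all eligible nuclear members in both ages, at 4.01-fold in young mice [3.49 to 4.62] and 4.24-fold in aged mice [3.66 to 4.93]. Its mean of 13.3 CPM passed the filter only through the CA libraries. Its partner Cox6a1, the isoform of most tissues, stood at 63.4, 134, 76.9 and 134 CPM, so Cox6a2 stayed well below it in every library. Cox6a2 lies on the minus strand of chromosome 7 (128205435 to 128206387, GRCm38), and 70 of its exonic bases overlap Itgad on the other strand, which read 2.52 CPM in sham and 3.53 in CA of young mice, and 7.0 and 6.44 in aged mice. In the monocyte gate of the young CA library, Cox6a2 had 3 UMIs (0.736 CPM), below its level in microglia of the same library. In aged sham neutrophils it had 17 UMIs (15.5 CPM, interval 9.05 to 24.9), where microglial gate markers also read 4029 CPM, and the part of those transcripts in that value was not tested. In aged CA neutrophils it had 2 UMIs (1.16 CPM), lower than in sham. In barcodes with no lineage call Cox6a2 gave 13.9, 27.5, 14.7 and 18.1 CPM.

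There were 7 nuclear members that did not reach the filter. Cox8b, the isoform known from heart and brown fat, was the one that stood apart, with 58 UMIs after sham surgery and 6 after CA in young mice, and 125 and 12 in aged mice. These counts correspond to 0.917, 0.0620, 4.03 and 0.240 CPM, so the CA level was 14.8 times lower in young mice and 16.8 times lower in aged mice. In barcodes with no lineage call Cox8b was higher, at 13.6, 2.80, 37.9 and 6.74 CPM in the same order, and lower after CA too. In neutrophils of aged mice it had 13 UMIs (11.9 CPM) in sham and 0 in CA. The part of transcripts from other cells in the microglial counts of Cox8b was not tested. Cox4i2, known from lung, had 7 to 58 UMIs in a library and was higher after CA in both ages, by 3.44-fold [1.79 to 7.28] and 3.36-fold [1.48 to 8.93]. Cox6b2, known from testis, had 56 to 222 UMIs, and Cox7a1, known from muscle, had 24 to 166 UMIs. For Cox7a1 the CA ratio was 2.36 in young and 0.41 in aged mice, on these low counts. The common partners were all abundant, as Cox6b1 (107, 231, 145 and 239 CPM), Cox7a2 (80.7, 164, 110 and 169 CPM) and Ndufa4, an accessory subunit now placed in complex IV (104, 219, 136 and 250.7 CPM), show. Ndufa4l2, a paralog induced by low oxygen, had a mean of 0.0170 CPM. Cox7b2 had a mean of 0.0734 CPM, and Cox8c had 0 UMIs in microglia of all 4 libraries, where 3 UMIs would have been 0.0310 to 0.0968 CPM.

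The mitochondrial genome is transcribed as long polycistronic RNAs that are cut into shorter messages. In young mice 12 of the 13 were higher in CA than in sham, against 44.0% of all genes, and none reached 2-fold, against 5.51%, with a median log2 ratio of 0.41. In aged mice 13 of the 13 were higher, against 52.4% of all genes, with a median of 0.66. There, 4 reached 2-fold, against 5.99% of all genes, namely mt-Nd1, mt-Atp6, mt-Atp8 and mt-Co2. Both CA libraries exceeded both sham libraries for 7 of the 13, against 32.5% of all genes, and these were mt-Nd1, mt-Nd4, mt-Cytb, mt-Co1, mt-Co2, mt-Co3 and mt-Atp6. For the other 6, the aged sham level reached or passed the young CA level.

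**Figure D3:**
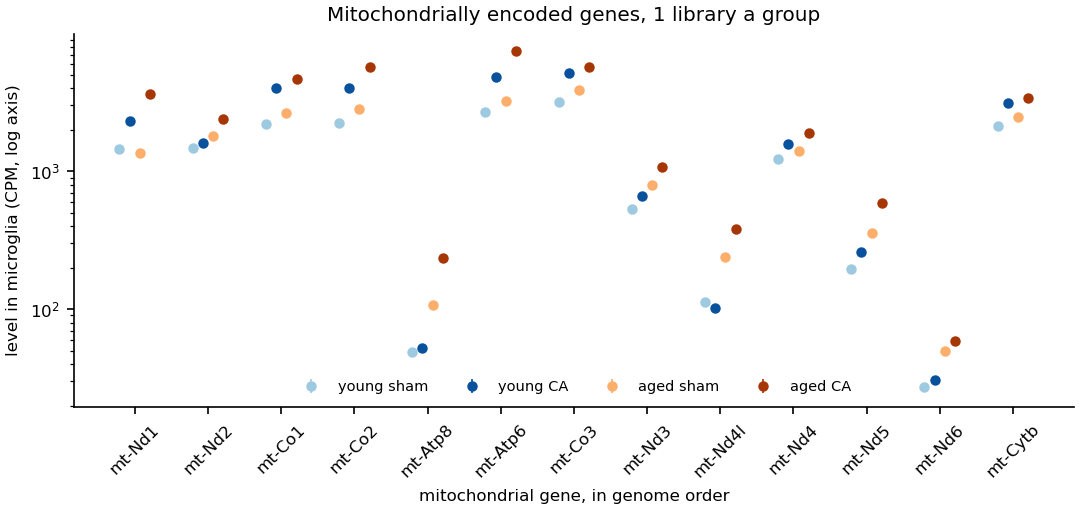
Level in microglia (CPM, log axis) of each mitochondrially encoded gene in genome order, 1 point for each library, with 95% counting intervals that are mostly smaller than the points. The least abundant genes, mt-Nd6, mt-Atp8, mt-Nd4l and mt-Nd5, lie higher in both aged libraries than in both young libraries, as do mt-Nd2 and mt-Nd3.

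The complex IV and V genes carried most of the mitochondrial signal. The core oxidase gene mt-Co1 gave 2195 CPM in sham and 4024 in CA microglia of young mice, and 2662 and 4695 in those of aged mice. mt-Co2 gave 2233, 4045, 2823 and 5706 CPM, and mt-Co3 gave 3187, 5114, 3867 and 5731 CPM. All 3 oxidase genes had both CA libraries above both sham libraries, with log2 ratios of 0.68 to 0.87 in young and 0.57 to 1.02 in aged mice. mt-Atp6, the proton channel subunit of ATP synthase, gave 2670, 4830, 3231 and 7450 CPM. It made up 15.2% of the mitochondrial member UMIs in young sham and 20.0% in aged CA. mt-Cytb, the only mitochondrial subunit of complex III, gave 2138, 3106, 2481 and 3402 CPM.

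The complex I genes of the mitochondrial genome did not move as a block. mt-Nd1 gave 1461 CPM in sham and 2294 in CA microglia of young mice, and 1352 and 3631 in those of aged mice. Its ratio was 1.57 in young mice [1.56 to 1.58] and 2.69 in aged mice [2.66 to 2.72], the highest of the 13 in aged mice. mt-Nd2 gave 1479, 1610, 1796 and 2408 CPM, with ratios of 1.09 and 1.34. mt-Nd4 gave 1231, 1588, 1403 and 1907 CPM, mt-Nd3 gave 536, 658, 794 and 1070 CPM, and mt-Nd5 gave 195, 259, 355 and 584 CPM. mt-Nd6, the only member on the light strand, gave 27.06, 30.55, 50.03 and 59.23 CPM. For mt-Nd2, mt-Nd3, mt-Nd5 and mt-Nd6 both aged libraries lay above both young libraries.

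The short genes mt-Atp8 and mt-Nd4l, whose reading frames overlap those of their neighbours, differed most between the ages. mt-Atp8, an accessory subunit of ATP synthase, gave 49.1 CPM in sham and 52.5 in CA microglia of young mice, and 107 and 236 in those of aged mice. mt-Nd4l, a membrane subunit of complex I, gave 113, 102, 240 and 379 CPM. After CA mt-Nd4l was slightly lower in young mice (0.90-fold, 0.88 to 0.93) and higher in aged mice (1.58-fold, 1.54 to 1.62). Both sequences are shown to mark the overlap with the next gene, with the bases that also belong to mt-Atp6 or mt-Nd4 in capitals.
mt-Atp8 (GRCm38, plus strand, chrM:7766-7969): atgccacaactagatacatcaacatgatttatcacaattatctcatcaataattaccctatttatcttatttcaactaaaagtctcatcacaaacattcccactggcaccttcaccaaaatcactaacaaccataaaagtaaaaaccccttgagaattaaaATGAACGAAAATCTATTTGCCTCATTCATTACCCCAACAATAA
mt-Nd4l (GRCm38, plus strand, chrM:9877-10173): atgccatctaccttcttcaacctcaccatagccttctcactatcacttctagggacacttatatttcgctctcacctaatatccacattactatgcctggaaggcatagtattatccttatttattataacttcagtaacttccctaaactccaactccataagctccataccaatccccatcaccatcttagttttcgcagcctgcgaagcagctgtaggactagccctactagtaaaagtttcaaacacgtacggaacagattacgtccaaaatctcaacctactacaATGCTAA
The last 43 of the 204 bases of mt-Atp8 belong to mt-Atp6 as well, and the last 7 of the 297 bases of mt-Nd4l belong to mt-Nd4. Reads that lie in the capitals cannot be given to one gene, and the strand setting of the counting was not given in the sources used here. How many of the mt-Atp8 and mt-Nd4l UMIs came from those bases was not tested. Whether UMIs from the other bases came from messages separate from the next gene was not tested either. Many members also have near-identical copies elsewhere in the genome, and how reads were shared with them was not tested. Exons of 27 of the 84 nuclear members, among them Cox4i1, Cox6c, Ndufb2, Ndufs1, Atp5j, Atp5l and Uqcrc2, overlap a gene on the other strand, and reads of such pairs cannot be told apart if strand was not used.

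Between the ages, the comparisons shared libraries with those above, so they are not independent of them. Among sham microglia, 71 of the 77 eligible nuclear members were higher in aged than in young mice, against 41.2% of all genes, with a median log2 ratio of 0.34 against -0.05 for all genes. None reached 2-fold, against 1.87% of all genes. Ndufa1 (log2 0.62), Cox5b (0.53) and Atp5md, a small membrane subunit of ATP synthase (0.52), followed Cox6a2 (0.82) at the top, with Ndufa5 (0.49) and Ndufb2 (0.46), both accessory subunits of complex I, next. Ndufs1 (-0.20), Sdha (-0.10), Uqcrc2 (-0.03), Uqcrc1 (-0.01), Sdhd (-0.01) and Ndufs4 (-0.004) were the 6 that were lower. Of the mitochondrial members 12 of 13 were higher in aged sham, and 2 reached 2-fold, mt-Atp8 (2.17-fold, 2.07 to 2.28) and mt-Nd4l (2.13-fold, 2.06 to 2.20). mt-Nd1 was the one that was lower in aged sham (0.92-fold, 0.91 to 0.94).

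Among CA microglia the nuclear genes differed little by age and the mitochondrial genes more. Of the nuclear members 53 of 77 were higher in aged CA than in young CA, against 51.6% of all genes, with a median log2 ratio of 0.08, and none reached 2-fold, against 1.61% of all genes. The nuclear sums were 1.06-fold apart [1.06 to 1.07]. All 13 mitochondrial members were higher in aged CA, with a median log2 ratio of 0.62, and the sum was 1.34-fold higher [1.34 to 1.35]. The 3 past 2-fold were mt-Atp8 (4.50-fold, 4.36 to 4.65), mt-Nd4l (3.72-fold, 3.63 to 3.81) and mt-Nd5 (2.25-fold, 2.22 to 2.29). Ndufb2, a membrane-arm subunit of complex I, and Atp5j, a coupling factor in the ATP synthase stalk, were at log2 -0.24 each, as was Sdha, and Ndufa13, an accessory subunit of complex I, was at -0.23. Cox6a2 (0.90), Ndufb9, a membrane-arm subunit of complex I (0.42), and Ndufa12 (0.40) were highest.

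Set side by side, the CA ratio was more positive in young than in aged mice for 67 of 77 nuclear members and more positive in aged than in young mice for 10 of 13 mitochondrial members. The order of the nuclear sums between ages depended on the Malat1 share of the cells. The ratio was the larger one in aged mice at 1 to 2% (1.33 in young, 1.39 in aged) and at 2 to 4% (0.99 and 1.12). It was the larger one in young mice at 0.5 to 1% (1.29 and 1.02) and at 4% or more (1.43 and 1.15). Under 0.5%, where young sham had 81 cells, it was 0.41 in young and 1.02 in aged mice. Over all eligible genes 4180 were more positive in young and 4987 in aged mice. The widest gaps among nuclear members were at Ndufb2 (log2 0.82 in young, 0.12 in aged), Ndufc1, a small complex I subunit (0.98 and 0.36), Atp5j (0.98 and 0.37) and Uqcrh, the hinge protein of complex III (0.94 and 0.36). In the other direction stood Ndufa10, an accessory subunit of complex I (0.36 and 0.60), Ndufs1 (-0.04 and 0.15), Sdhd (0.67 and 0.84) and Ndufs8, an iron-sulfur subunit of complex I (0.66 and 0.82). None of these differences between ages could be tested with 1 library a group.

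Other groups of mitochondrial genes had lower median ratios than the nuclear subunits. Their counts below stand against the 44.0% of all eligible genes that were higher after CA in young mice and the 52.4% in aged mice. Of 77 eligible mitochondrial ribosomal protein genes, 70 were higher after CA in young mice with a median log2 ratio of 0.47, and 66 in aged mice with a median of 0.41. Of 26 eligible import and carrier genes, 25 were higher in young and 26 in aged mice, with medians of 0.60 and 0.55. Ucp2, an inner membrane carrier, led that list with 138 CPM in sham and 449 in CA microglia of young mice, and 152 and 371 in those of aged mice. Of 16 genes of the tricarboxylic acid cycle, 13 were higher in young and 14 in aged mice, with medians of 0.21 and 0.32, and Mdh2, malate dehydrogenase, had 0.66 and 0.61. The mobile carrier gene Cycs, cytochrome c, had log2 ratios of 0.83 and 0.56, and Cyc1, a heme-bearing subunit of complex III outside the symbol rule, had 0.52 and 0.60.

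Genes that help assemble the complexes had median ratios near 0, and their counts stand against the same 44.0% and 52.4% of all genes. Of 40 eligible assembly factors 24 were higher after CA in young mice with a median log2 ratio of 0.14, and 26 in aged mice with a median of 0.07. Cox16, an assembly factor of complex IV, was the lowest, at 259 CPM in sham and 146 in CA microglia of young mice, and 260 and 84.4 in those of aged mice. Uqcc2, an assembly factor of complex III, had log2 ratios of 1.12 in young and 0.26 in aged mice. Of 14 eligible genes for mitochondrial transcription and biogenesis 7 were higher in young and 10 in aged mice, with medians of -0.05 and 0.20. Nrf1, a transcription factor of respiratory genes, gave 168, 133, 139 and 120 CPM, lower in both CA libraries than in both sham libraries. Ppargc1b, a coactivator of mitochondrial genes, gave 8.08, 14.1, 9.10 and 24.5 CPM.

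Cytosolic ribosomal protein genes, which have no part in respiration, had higher median ratios than the nuclear subunits. Their sum was 37102 CPM in sham and 81124 in CA microglia of young mice, and 48500 and 96981 in those of aged mice, and their median log2 ratio was 1.17 in young and 1.02 in aged mice. Scaled to these ribosomal UMIs in place of all UMIs, the nuclear sum of the members was lower after CA, at log2 -0.26 in young and -0.35 in aged mice, and the mitochondrial sum at -0.47 and -0.18. Malat1, an RNA retained in the nucleus, moved the other way, with 26434, 13180, 25999 and 16259 CPM. Gene size went with the ratio as well. The eligible nuclear members spanned a median of 7284 bases of the genome, against 27063 bases for all eligible genes. Among other genes under 5000 bases the median log2 ratio was 0.35 in young and 0.23 in aged mice, and among genes of 100000 bases or more it was -0.32 and -0.27. The members followed the same order, from 0.997 in young mice for the 24 under 5000 bases, through 0.93 for 30 and 0.69 for 13 in the next ranges, to 0.28 for the 9 between 20000 and 50000 bases. Other genes in those 4 ranges had 0.35, 0.18, 0.06 and -0.08. Ndufs4, the longest eligible member at 100464 bases, had a young ratio of -0.08.

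Cells with the same Malat1 share were then compared, a choice made after seeing the data. Among microglia with 1 to 2% Malat1 UMIs, which had a median of 11472 UMIs in young sham and 11389 in young CA, the nuclear sum was 6739 CPM in young sham and 8976 in young CA, a ratio of 1.33. In the same window it was 8088 CPM in aged sham and 11252 in aged CA, a ratio of 1.39. No nuclear member reached 2-fold there in young mice, and 73 of 77 were higher, with a median log2 ratio of 0.41. The shares of all genes given above were taken over all microglia. None is given within this window, so these counts stand here without a background. Among microglia with 2 to 4% Malat1 UMIs the nuclear ratio was 0.99 in young mice and 1.12 in aged mice, with median depths of 9042 and 3837 UMIs in the young libraries. The mitochondrial sums kept ratios of 1.57 and 2.06 in young mice and 1.91 and 1.92 in aged mice in those 2 windows. The nuclear ratios were thus smaller in both windows than over all microglia. In the other ranges of Malat1 share they ran from 0.41, where young sham had 81 cells, to 1.43 in young mice and from 1.02 to 1.15 in aged mice.

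**Figure D4:**
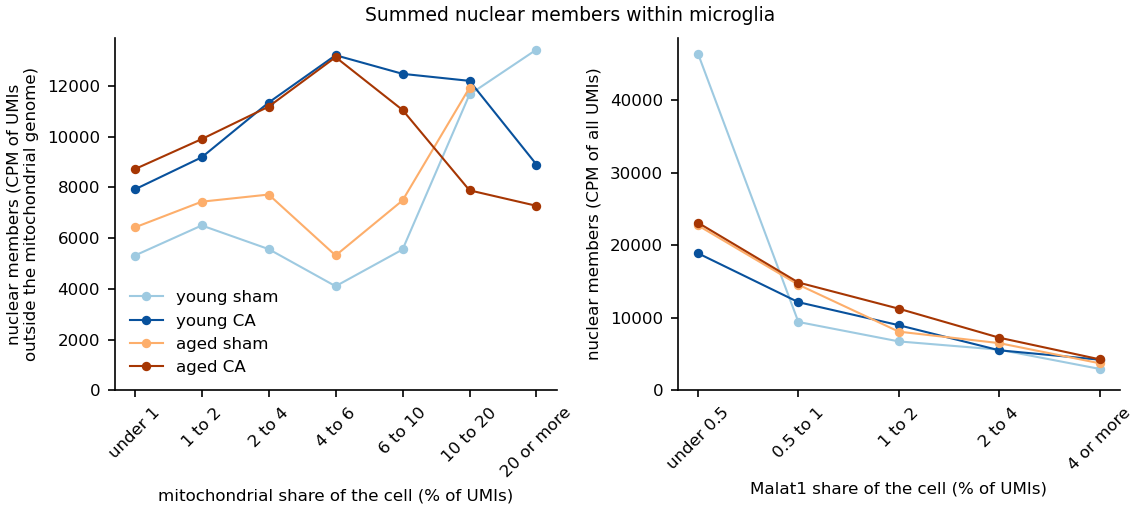
Summed nuclear members in microglia by the mitochondrial share of the cell (left, CPM of UMIs outside the mitochondrial genome, no limit on the share) and by its Malat1 share (right, CPM of all UMIs), 1 line for each library and both axes of level from 0. CA lines lie above sham lines below a 10% mitochondrial share, and the aged CA line lies below aged sham between 10 and 20% (7888 and 11936 CPM), as the young CA line does below young sham at 20% or more (8907 and 13441 CPM), while on the right every line falls as the Malat1 share grows. The first point of young sham on the right, 46457 CPM, rests on 81 cells with a median of 685 UMIs.

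The nuclear members also varied with the mitochondrial share of the cell. Below 10% mitochondrial UMIs, the nuclear level outside the mitochondrial genome was 1.41-fold to 3.22-fold higher in young CA than in young sham across 5 ranges, and 1.33-fold to 2.47-fold higher in aged CA than in aged sham. Between 10 and 20% it was 11669 CPM after sham surgery and 12207 after CA in young mice, a ratio of 1.05. In that range it was 11936 and 7888 CPM in aged mice, a ratio of 0.66. At 20% or more the young libraries had 13441 CPM after sham surgery (45 cells) and 8907 after CA (77 cells), again a ratio of 0.66. The range of 10 to 20% held 63 to 455 cells a library, with median depths of 1188 to 3553 UMIs. In both CA libraries the nuclear level was highest at 4 to 6% mitochondrial UMIs, at 13218 CPM in young and 13141 in aged mice, whereas both sham libraries had a low there, at 4105 and 5317 CPM.

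Promoters were searched for letters of factors known to bind promoters of respiratory genes, in RefSeq windows from 250 bases before to 50 after each start (GRCm38.p6). Of the 77 eligible nuclear members, 63 had an entry, with 68 promoters among 32851 in the table. The letters searched for NRF1, GCGCA followed by any base and then GCGC, stood on either strand in 26.5% of the member promoters and in 4.60% of all promoters. Counted by gene, that was 27.0% of members against 13.1% of all eligible genes with an entry. The exact form, with T as the free base, lies within the former and was in 7.35% of member promoters and 0.971% of all. The ETS letters CCGGAAG, as the factor GABP reads them, were in 17 of the 68 member promoters and in 8.86% of all, but by gene in 27.0% of members and 23.2% of all eligible genes. The short YY1 letters ATGGCGGC were in 10.3% and 2.24%, and the longer YY1 form, AAG followed by ATGGCGG, which can overlap the short one, in 7.35% and 0.852%. The CREB letters TGACGTCA were in 5.88% and 1.79%, and the E-box CACGTG in 8.82% and 7.15%. By gene, the short YY1 letters were in 9.52% of members and 6.75% of all eligible genes, the longer form in 7.94% and 2.93%, the CREB letters in 6.35% and 3.78%, and the E-box in 7.94% and 12.7%, the reverse of its order by promoter. Members with and without the NRF1 letters had median log2 ratios of 0.80 and 0.91 after CA in young mice, from 17 and 46 genes. With and without the ETS letters the medians were 0.94 and 0.88, and with and without the short YY1 letters they were 0.55 (6 genes) and 0.90 (57 genes). These medians are descriptions, and a match of letters is not a site bound by a factor.

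To show what such matches look like, 4 stretches are given, each of 110 bases from 150 to 41 bases before the start and on the minus strand, with NRF1 or ETS letters of either strand in capitals (RefSeq, GRCm38.p6). They were chosen after their values were seen, among stretches free of annotated exons.
Cox6a1 (chr5:115348999-115349108): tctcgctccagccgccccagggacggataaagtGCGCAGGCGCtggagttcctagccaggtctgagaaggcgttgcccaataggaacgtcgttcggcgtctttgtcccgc
Uqcr11 (chr10:80406862-80406971): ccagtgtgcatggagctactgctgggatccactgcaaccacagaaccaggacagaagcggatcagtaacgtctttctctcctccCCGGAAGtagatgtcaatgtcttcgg
Atp5e (chr2:174464142-174464251): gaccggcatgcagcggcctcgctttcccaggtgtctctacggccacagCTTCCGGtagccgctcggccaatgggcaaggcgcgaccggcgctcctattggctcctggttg
Uqcr10 (chr11:4704385-4704494): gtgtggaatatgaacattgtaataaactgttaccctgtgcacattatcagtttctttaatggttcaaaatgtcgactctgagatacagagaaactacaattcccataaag
Cox6a1 holds an NRF1 match and Uqcr11 and Atp5e an ETS match, while Uqcr10 holds neither in this stretch. Their CA ratios in young mice were 2.12 for Cox6a1, 2.10 for Uqcr11, 2.24 for Atp5e and 2.26 for Uqcr10.

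Outside microglia the direction after CA varied from gate to gate, and the gates held few cells. Only gates with at least 50 cells in both libraries were compared. Among border-associated macrophages, the macrophages of the meninges and vessels, the nuclear sum was 11891 CPM in young sham (72 cells) and 10949 in young CA (51 cells), a ratio of 0.92 [0.89 to 0.96]. Their mitochondrial sum was 34895 and 27073 CPM, a ratio of 0.78 [0.76 to 0.79], and 13 of 13 mitochondrial members were lower after CA, against 48.0% of all genes. Among T cells of aged mice the nuclear sum was 13932 CPM in sham (68 cells) and 12039 in CA (50 cells), a ratio of 0.86 [0.83 to 0.89], and 54 of 76 nuclear members were lower, against 52.3% of all genes. The mitochondrial ratio there was 0.91 [0.89 to 0.93]. Among neutrophils of aged mice the nuclear ratio was 1.16 [1.13 to 1.19] and the mitochondrial ratio 1.25 [1.22 to 1.27], with 387 cells of median 1553 UMIs in sham and 92 cells of median 16227 UMIs in CA. There 52 of 76 nuclear members were higher, against 42.9% of all genes. Microglial gate markers read 4029 CPM in those sham neutrophils and 618 in the CA neutrophils. The difference between microglia and these gates was not tested.

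**Figure D5:**
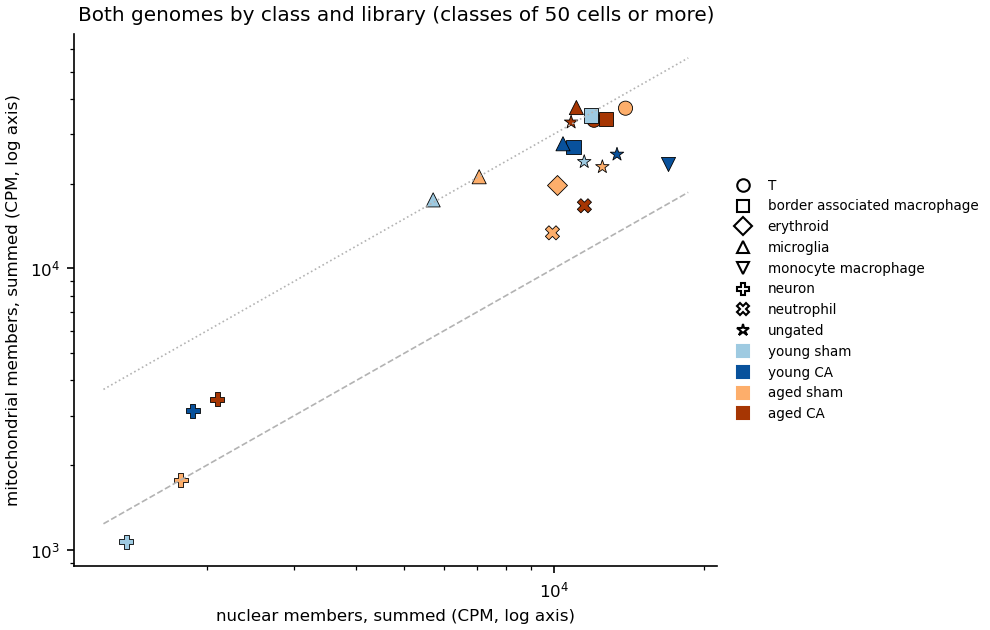
Summed nuclear members against summed mitochondrial members (CPM, both axes log) for each gate of 50 cells or more in each library. The dashed line marks equal sums and the dotted line 3 mitochondrial UMIs per nuclear UMI, near which the microglia lie (2.66 to 3.36), whereas neutrophils (1.35 and 1.45) and monocytes (1.39) lie closer to equal sums and barcodes with neuronal markers (0.78 to 1.67) lie far below in both sums.

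The balance of the genomes differed by cell type. Monocytes of young CA mice (205 cells) had the highest nuclear sum, 16938 CPM, with 23506 mitochondrial CPM, or 1.39 mitochondrial UMIs per nuclear UMI. Neutrophils had 1.35 in aged sham and 1.45 in aged CA, and T cells 2.66 and 2.79. Barcodes with neuronal markers had the lowest sums, with nuclear levels of 1377 CPM after sham surgery and 1873 after CA in young mice, 1773 and 2099 CPM in aged mice, and mitochondrial levels in the same order of 1070, 3126, 1774 and 3427 CPM. Their cytosolic ribosomal sum was low as well, at 1791, 5534, 4575 and 5246 CPM in the same order. These barcodes numbered 118 in sham and 100 in CA of young mice, with median depths of 34383 and 24282 UMIs. In aged mice they numbered 248 and 165, with median depths of 5569 and 28866 UMIs. In these barcodes the mitochondrial ratio after CA was 2.92 in young mice [2.82 to 3.03] and 1.93 in aged mice [1.88 to 1.98], against nuclear ratios of 1.36 and 1.18. Nuclear members were higher for 60 of 62 in young mice, against 64.3% of all genes, and for 48 of 68 in aged mice, against 60.1%. Barcodes that met no lineage call had nuclear ratios of 1.16 in young and 0.87 in aged mice. Of their nuclear members, 69 of 77 were higher in young mice (against 44.6% of all genes). In aged mice 54 of 78 were lower (against 44.7%). The mitochondrial ratio in these barcodes was 1.06 in young mice [1.05 to 1.07] and 1.44 in aged mice [1.43 to 1.45].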

How the data were processed

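The authors deposited raw UMI counts per gene and barcode, made with Cell Ranger 7.1.0 on mm10, per the submitters' processing notes. For the annotation, the cell calling, strand and intron reads, the setting is not given in the sources used here. Everything else was computed from the deposited counts with Python 3.11.15, numpy 2.4.6, scipy 1.17.1, scanpy 1.11.5 and, for the TMM factors, edgeR 4.0.16.

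Each of the 4 groups was 1 library, so no test was run. A barcode was placed in a class with at least 2 different markers, 3 marker UMIs and 75% of its marker UMIs on 1 of 13 lists. For each class in each library UMIs were added up and expressed as CPM of all its UMIs. A gene was counted where its mean over the 4 libraries was at least 10 CPM, and called at a ratio of 2. Intervals are exact Poisson or conditional binomial, at 95%, for counting error only. Depth was 44277472 to 115892682 UMIs a library. No barcode was removed by a doublet score in the main counts. The gate drops barcodes with under 75% of marker UMIs on 1 list. Doublets of the same lineage, and mixed ones that reach 75%, can therefore pass it. Scrublet's own threshold marked 0 barcodes in all 4 libraries, so 610, 821, 455 and 277 barcodes with the highest scores were left out only as an alternative. Gene positions came from GENCODE M21, in which 97 of 97 members matched. Ratios, intervals and the gate were tested on simulated data.

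Members, lists and settings were chosen with earlier results of these data known. The genes named are all mitochondrial members, the 4 Sdh genes, and the restricted isoforms with their common partners. Added to these are, for each comparison, the 6 nuclear members of highest and the 6 of lowest ratio, then the 5 most abundant, and the 4 with the widest gap between ages in each direction. From other lists, genes at either end were named. Atp5b, Atp5d, Atp5g3, Cox7a2l, Uqcr11, Uqcrfs1, Cyc1, Nrf1, Ppargc1b and Itgad, and the 4 promoter stretches, were added after their values were seen. Alternatives are described under the processing dependence, and ribosomal scaling and equal Malat1 share were chosen after seeing the data. The result of 1 alternative gate is not reported here.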

Additional observations from a re-analysis of the deposited data

Results flagged for a closer look

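Some values pointed in opposite directions in young and aged mice after CA, each with a counting interval clear of 1, and none of these differences was tested. In microglia the log2 ratio of mt-Nd4l was -0.147 in young mice and 0.658 in aged mice. For Sdha it was 0.055 in young mice and -0.081 in aged mice. The number of mitochondrial UMIs per nuclear member UMI was 0.8669-fold the sham value in young mice and 1.122-fold in aged mice. This last contrast was not seen among cells of 1 to 2% Malat1 UMIs. There the mitochondrial ratio after CA exceeded the nuclear one in both ages (1.57 against 1.33 in young and 1.91 against 1.39 in aged mice). At 0.5 to 1% and at 4% or more, both ratios were nearly equal in young mice (1.29 each and 1.43 each). In aged mice the mitochondrial ratio was the larger one in those ranges (1.59 against 1.02 and 1.46 against 1.15). In barcodes without a lineage call, the summed nuclear members were 1.164-fold the sham level in young mice and 0.8651-fold in aged mice. The summed mitochondrial members there were higher after CA in both ages, at 1.063-fold in young and 1.440-fold in aged mice. These barcodes had median depths of 1336 (sham) and 3649 UMIs (CA) in young mice, and 1548 and 4623 UMIs in aged mice.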

How the results depend on the processing

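No paired analysis was possible because each group had 1 library, and for the same reason no library could be left out. Of the settings below, ribosomal scaling and windows of Malat1 share were chosen after seeing the data. Shares of all genes called (after CA 5.51% in young and 5.99% in aged mice) were taken for the main setting only. That setting was all gated microglia, CPM of all UMIs and a mean of 10 CPM or more. Counts under the other settings therefore stand without a background. The count of nuclear members 2-fold or more higher after CA in young mice was 24. It was 45 with TMM scaling, which moved the median log2 ratio of all genes from -0.06 to 0.12, and 41 with median-of-ratios scaling. It was 10 with the mean over cells, 10 in cells of 5000 to 10000 UMIs, and 0 under ribosomal scaling and in cells of 1 to 2% or 2 to 4% Malat1 UMIs. For aged mice it was 6, against 10 (TMM), 11 (median of ratios), 16 (stricter gate), 1 (mean over cells, ribosomal scaling, 1 to 2% Malat1) and 0 (5000 to 10000 UMIs, 2 to 4% Malat1). The mitochondrial count in young mice was 0, against 3 with TMM and 4 at 2 to 4% Malat1, and in aged mice it was 4, against 0 under ribosomal scaling. For aged against young sham, the nuclear count was 0, against 1 after thinning to 2000 UMIs or with a filter at 1 CPM. The mitochondrial count there was 2, against 1 after thinning and 0 with the mean over cells or ribosomal scaling. For aged against young CA the nuclear count was 0, against 1 with the mean over cells, thinning, the stricter gate, the filter at 1 CPM or 1 to 2% Malat1. Summed levels kept their direction under every other setting run, and reversed only as follows. Under ribosomal scaling, whose median over all genes was -1.20 in young and -0.98 in aged mice, the log2 ratio after CA was -0.260 (nuclear) and -0.466 (mitochondrial) in young and -0.350 and -0.184 in aged mice. Between ages it was -0.079 and -0.114 in sham, and -0.168 for nuclear members in CA. In cells of 2 to 4% Malat1 UMIs the young nuclear value was -0.021. The cause of these differences was not tested. Counting error was small for abundant members, and depth limited Cox8b, Cox7a1 and the other low isoforms.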

Other observations

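Ndufb1-ps, which the symbol rule left out because its name marks a pseudogene, had a level like that of the complex I subunits. It gave 98.3 CPM in sham and 179 in CA microglia of young mice, and 125 and 200 in those of aged mice. Its ratio after CA was 1.82 in young mice [1.77 to 1.87] and 1.61 in aged mice [1.55 to 1.67].

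Exons of 27 of the 84 nuclear members overlap a gene on the opposite strand, and 0 overlap one on the same strand. Vps13b, opposite Cox6c (117 to 291 CPM), read 228 to 280 CPM, and Braf, opposite Ndufb2 (32.9 to 58.1 CPM), read 115 to 136 CPM.

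The 4 least abundant mitochondrial genes, mt-Nd6, mt-Atp8, mt-Nd4l and mt-Nd5, had the 4 highest ratios of aged sham over young sham among the 13, at log2 0.89, 1.12, 1.09 and 0.87. Together, the 5 most abundant mitochondrial genes held 72.9% of the summed mean CPM of that genome, and the 5 most abundant nuclear members held 16.5% of theirs.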
